A study of Homo sapiens with 6 samples.

Results

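Proteoglycans are proteins that carry glycosaminoglycan chains, and 10 genes encoding their core proteins are described here: BGN, DCN, VCAN, HSPG2, GPC1, SDC1, SDC2, SDC3, SDC4 and CSPG4. They were chosen by name, with earlier results of these data known, and matched by symbol to Ensembl IDs. They are 10 of the 57773 genes in the deposited count table, and all 10 are among the 15818 genes that had enough reads to be tested. U251 is an established human glioblastoma cell line. The study set U251 cells that overexpress PD-L1, the immune checkpoint ligand encoded by CD274, against U251 cells with the empty vector. In the PD-L1 group, cells of a stable line carried a lentiviral PD-L1 construct. In the Vector group, cells carried the lentiviral vector alone. Both lines were grown in DMEM with 10% fetal bovine serum, and 3 dishes of each were harvested 12 h after passage for poly-A RNA sequencing. Since each group is 1 transduced line, the tests weigh differences against dish-to-dish spread, not against that of separate transductions.

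Core proteins reach the cell surface or the matrix through the secretory pathway, where enzymes build heparan sulfate or chondroitin sulfate chains on them. The chains bind growth factors, chemokines and matrix proteins, so proteoglycans act as co-receptors at the membrane and as reservoirs and scaffolds in the matrix. In brain tumours, versican, perlecan, glypican-1, the syndecans and CSPG4 (also called NG2) are known as parts of the altered pericellular matrix.

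The promoters of 4 members are printed because these genes differ in outcome: BGN, SDC4 and HSPG2 were lower in the PD-L1 dishes and CSPG4 did not pass the test. Each is the stretch of 250 bases before the gene's start in RefSeq, build GRCh38.p14, read 5′ to 3′ on the gene's own strand. The windows are chrX:153494730-153494979 (plus strand) for BGN, chr20:45348425-45348674 (minus) for SDC4, chr1:21937311-21937560 (minus) for HSPG2 and chr15:75712849-75713098 (minus) for CSPG4. Capitals mark matches to the motifs searched.
BGN: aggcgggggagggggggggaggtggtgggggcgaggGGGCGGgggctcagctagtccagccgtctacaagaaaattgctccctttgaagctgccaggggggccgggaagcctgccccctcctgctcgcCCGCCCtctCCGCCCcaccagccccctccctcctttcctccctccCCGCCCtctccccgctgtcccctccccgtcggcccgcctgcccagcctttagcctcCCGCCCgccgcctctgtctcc
SDC4: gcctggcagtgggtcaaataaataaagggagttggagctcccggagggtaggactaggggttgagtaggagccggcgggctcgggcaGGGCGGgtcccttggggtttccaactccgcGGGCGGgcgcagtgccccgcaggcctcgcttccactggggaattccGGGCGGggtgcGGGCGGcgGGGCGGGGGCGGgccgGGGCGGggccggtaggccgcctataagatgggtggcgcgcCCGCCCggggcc
HSPG2: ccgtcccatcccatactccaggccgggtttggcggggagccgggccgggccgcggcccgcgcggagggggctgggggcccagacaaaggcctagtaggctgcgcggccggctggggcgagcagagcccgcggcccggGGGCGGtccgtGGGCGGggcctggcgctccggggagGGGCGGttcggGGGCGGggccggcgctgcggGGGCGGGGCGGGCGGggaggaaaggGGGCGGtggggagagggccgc
CSPG4: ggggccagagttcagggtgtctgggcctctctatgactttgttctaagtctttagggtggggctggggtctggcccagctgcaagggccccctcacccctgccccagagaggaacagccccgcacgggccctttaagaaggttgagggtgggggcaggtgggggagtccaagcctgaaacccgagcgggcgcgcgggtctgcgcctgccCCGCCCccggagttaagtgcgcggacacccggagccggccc

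In these windows 5 motifs were searched on both strands, and overlapping matches were counted: the GC box GGGCGG, the AP-1 site TGANTCA, the TATA box TATAAA, the E-box CACGTG and the TEAD site GGAATG. The RefSeq table held 9 promoter windows for 8 of the 10 members, with 2 windows for SDC1. All 9 windows held at least 1 GC box, against 42.6% of all 35116 promoter windows of this length. Their GC content ran from 60.8% (VCAN) to 84% (GPC1), and they were not compared with windows of like GC content. SDC4 and HSPG2 held 8 GC boxes each, BGN and SDC3 held 5 each, GPC1 held 4, and VCAN, CSPG4 and both SDC1 windows held 1 each. The other 4 motifs had 0 matches in the 9 windows. Over all 35116 windows, 6.57% held the AP-1 site, 10.7% the TATA box, 6.34% the E-box and 11.9% the TEAD site. SDC3 with its 5 GC boxes did not pass the test, and VCAN with 1 was lower. Whether the number of GC boxes goes with the change was not tested.

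Total counts per dish ranged from 15678989 to 19704409 in the PD-L1 dishes and from 18797948 to 22270509 in the Vector dishes. At this depth 3 counts correspond to 0.138 to 0.185 CPM (counts scaled to a common library size, with TMM correction for composition). CD274 had 26827, 22001 and 23046 counts in PD-L1 dishes 1 to 3 and 34, 71 and 41 counts in Vector dishes 1 to 3 (log2 fold change 9.07 ± 0.18, adjusted p = 1.45e-12, edgeR). Counts varied more between replicate dishes than sampling alone gives, and PD-L1 dish 3 stood apart. The chi-square per degree of freedom was 14.5 between PD-L1 dishes 3 and 1 and 13.6 between PD-L1 dishes 3 and 2, but 2.84 between PD-L1 dishes 1 and 2. The Vector pairs lay between 4.87 and 9.15, with 9.15 between Vector dishes 1 and 2. Of the glioma and astrocyte markers, VIM was abundant at a mean of 241.2 CPM in PD-L1 dishes and 391.4 CPM in Vector dishes. GFAP was low at 1.70 CPM in PD-L1 dishes and 3.18 CPM in Vector dishes, and AQP4 was at 0.30 CPM in both. Of this list, 4 of 7 tested markers (GFAP, SOX2, NES and VIM) were lower and 0 higher (adjusted p under 0.05, edgeR). The shares over all tested genes were 7.2% lower and 1.55% higher.

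Across the 10 core proteins, 7 were lower in the PD-L1 dishes in the edgeR quasi-likelihood test at a false discovery rate (FDR) of 0.05 over all tested genes: BGN, DCN, VCAN, HSPG2, GPC1, SDC1 and SDC4. None was higher, with 0 of 10 also at an unadjusted p under 0.05 in edgeR and 0 in DESeq2. Over all tested genes, 7.2% were called lower and 1.55% higher. SDC2, SDC3 and CSPG4 did not pass. DCN passed the filter on low counts only through its Vector dishes, and of the other 9 members 6 were lower. The median log2 fold change (PD-L1 minus Vector) was -0.75 over the 10 members and 0.02 over all tested genes. For the same 7 members, every PD-L1 dish lay below every Vector dish, as was the case for 15.5% of all tested genes. In RNA from whole dishes, fewer cells of a kind and less RNA per cell cannot be told apart.

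**Figure D1:**
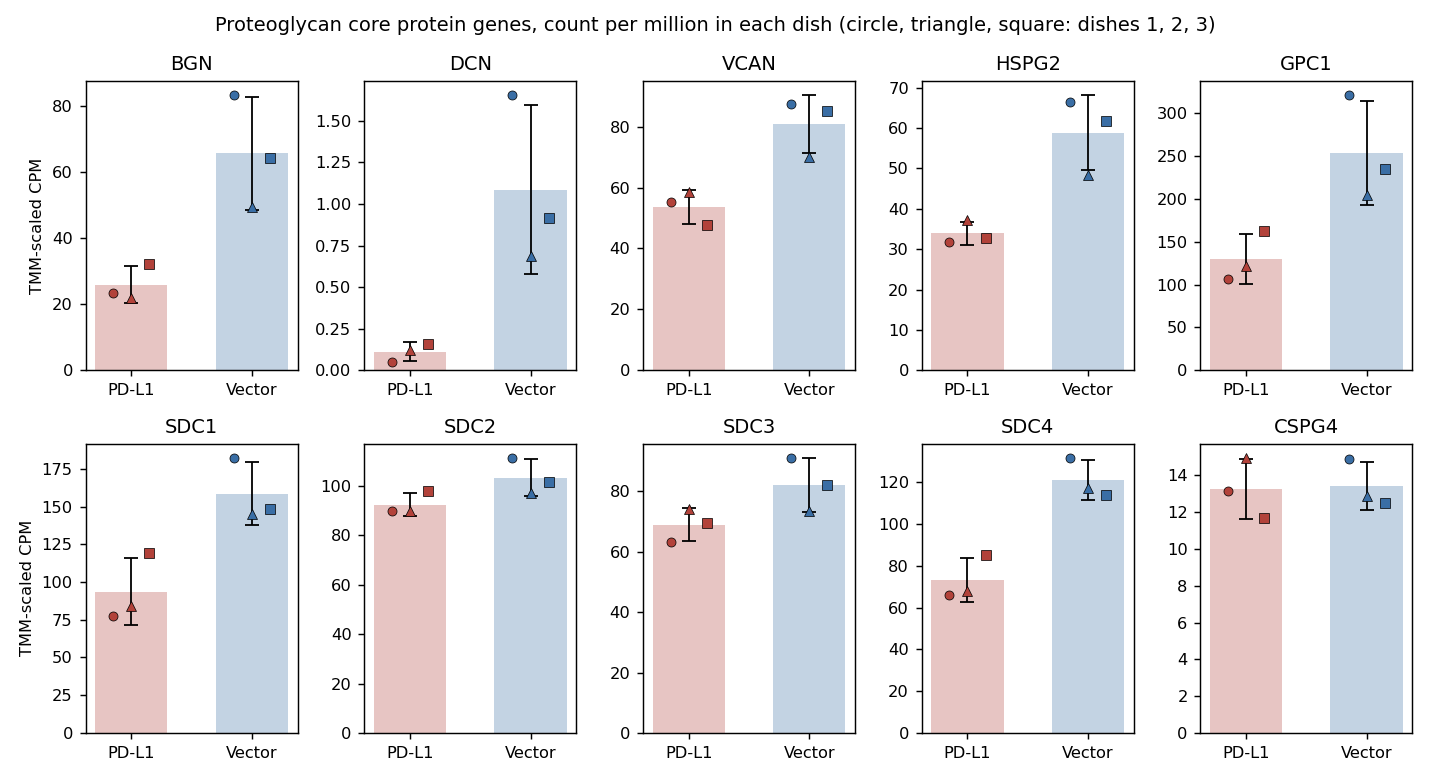
CPM of each of the 10 core protein genes in the 3 PD-L1 dishes (left) and the 3 Vector dishes (right), with 1 point per dish, bars for the group mean and error bars for the SD. The PD-L1 dishes lie below all Vector dishes for BGN, DCN, VCAN, HSPG2, GPC1, SDC1 and SDC4, while the groups overlap for SDC2, SDC3 and CSPG4.

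Biglycan and decorin are small leucine-rich matrix proteoglycans that bind collagen and transforming growth factor beta. BGN (ENSG00000182492) had 23.5, 21.8 and 32.2 CPM in PD-L1 dishes 1 to 3, against 83.4, 49.4 and 64.1 CPM in Vector dishes 1 to 3. All PD-L1 dishes were below all Vector dishes, and Vector dish 1 was the highest. BGN averaged 25.9 ± 5.59 CPM in PD-L1 dishes and 65.6 ± 17.1 CPM in Vector dishes (SD, n = 3 each). It was 2.54-fold lower, with a log2 fold change of -1.34 ± 0.20 (SE) and an adjusted p of 0.0052 in edgeR's quasi-likelihood test. Without PD-L1 dish 1 it missed the threshold, with an adjusted p of 0.0571.

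DCN (ENSG00000011465) was barely detected. It had 1, 2 and 3 counts in PD-L1 dishes 1 to 3, against 36, 14 and 17 counts in Vector dishes 1 to 3. The groups did not overlap, and each PD-L1 dish was at or below 3 counts. Scaled for depth, the 6 PD-L1 counts against 67 Vector counts made DCN 10.2-fold lower, with an exact 95% counting interval of 4.44 to 28.7-fold that covers counting error only. DCN passed the filter on low counts through its Vector dishes alone, so it could only be tested because the groups differ, and its call (adjusted p = 0.0027 in edgeR) rests on that filter. DESeq2 gave no adjusted p for DCN at its low mean.

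Versican, a large chondroitin sulfate proteoglycan that binds hyaluronan, and perlecan, the large heparan sulfate proteoglycan of basement membranes, are the large matrix members. VCAN (ENSG00000038427) had 55.2, 58.4 and 47.6 CPM in PD-L1 dishes 1 to 3, against 87.6, 69.9 and 85.2 CPM in Vector dishes 1 to 3. Its PD-L1 dish 3 was the lowest of all 6, whereas the same dish was the highest PD-L1 dish for BGN and DCN. VCAN was 1.51-fold lower, with a log2 fold change of -0.59 ± 0.10 (SE) and an adjusted p of 0.0028 in edgeR.

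HSPG2 (ENSG00000142798), the perlecan gene, had 31.8, 37.2 and 32.9 CPM in PD-L1 dishes 1 to 3, against 66.5, 48.4 and 61.7 CPM in Vector dishes 1 to 3. The PD-L1 dishes lay close together and below all Vector dishes. Its mean was 33.9 ± 2.83 CPM in PD-L1 dishes and 58.9 ± 9.36 CPM in Vector dishes (SD, n = 3 each). It was 1.74-fold lower, with a log2 fold change of -0.80 ± 0.11 (SE) and an adjusted p of 7.43e-04 in edgeR. VCAN and HSPG2 overlap exons of VCAN-AS1 and LDLRAD2 on the opposite strand, which the library kit cannot separate, and each of these partners had at most 2 counts in a dish.

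Glypican-1 is held at the membrane by a lipid anchor and is a co-receptor for fibroblast growth factors. GPC1 (ENSG00000063660) had 106.0, 121.1 and 162.9 CPM in PD-L1 dishes 1 to 3, against 321.4, 204.3 and 234.9 CPM in Vector dishes 1 to 3. The groups did not overlap, but PD-L1 dish 3 came nearest to the Vector dishes. GPC1 was 1.95-fold lower, with a log2 fold change of -0.96 ± 0.20 (SE) and an adjusted p of 0.0245 in edgeR. It missed the threshold in 5 other fits: the adjusted p in edgeR was 0.0776, 0.186 and 0.0654 when PD-L1 dish 1, 2 or 3 was left out, 0.0583 when Vector dish 3 was left out, and 0.0848 with no filter on low counts.

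The 4 syndecans are transmembrane heparan sulfate proteoglycans whose cytoplasmic tails bind adaptor proteins. SDC4 (ENSG00000124145), which is known from focal adhesions, had 65.8, 68.1 and 85.0 CPM in PD-L1 dishes 1 to 3, against 131.8, 117.0 and 114.0 CPM in Vector dishes 1 to 3. The groups were well apart, with PD-L1 dish 3 the highest of its group. SDC4 averaged 73.0 ± 10.5 CPM in PD-L1 dishes and 121.0 ± 9.52 CPM in Vector dishes (SD, n = 3 each). It was 1.66-fold lower, with a log2 fold change of -0.73 ± 0.10 (SE), and its adjusted p of 6.07e-04 in edgeR was the smallest among the 10 members.

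SDC1 (ENSG00000115884), best known from epithelia and plasma cells, had 77.7, 84.0 and 118.9 CPM in PD-L1 dishes 1 to 3, against 182.5, 144.9 and 148.3 CPM in Vector dishes 1 to 3. PD-L1 dish 3 was again the highest of its group and still below all Vector dishes. The gene was lower by a log2 fold change of -0.76 ± 0.15 (SE), with an adjusted p of 0.011 in edgeR. Without PD-L1 dish 2 the adjusted p was 0.0697.

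SDC2 (ENSG00000169439), the syndecan typical of fibroblasts and other mesenchymal cells, had 90.0, 89.8 and 97.9 CPM in PD-L1 dishes 1 to 3, against 111.6, 97.1 and 101.8 CPM in Vector dishes 1 to 3. The groups overlapped, because PD-L1 dish 3 lay above Vector dish 2. SDC2 had a log2 fold change of -0.16 ± 0.08 (SE) and an adjusted p of 0.233 in edgeR. Without PD-L1 dish 3 the adjusted p was 0.0441, at a log2 fold change of -0.21.

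SDC3 (ENSG00000162512), a syndecan of neural tissue that binds pleiotrophin, had 63.3, 74.1 and 69.7 CPM in PD-L1 dishes 1 to 3, against 91.3, 73.4 and 82.0 CPM in Vector dishes 1 to 3. Here PD-L1 dish 2 lay just above Vector dish 2. SDC3 had a log2 fold change of -0.25 ± 0.09 (SE) and missed the threshold in edgeR (adjusted p = 0.11). It passed without PD-L1 dish 3 (adjusted p = 0.0455) and with no filter on low counts (0.0381). With a GC and length offset, a per-dish correction by exon GC content and transcript length, its log2 fold change was -0.09 (adjusted p = 0.359).

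**Figure D2:**
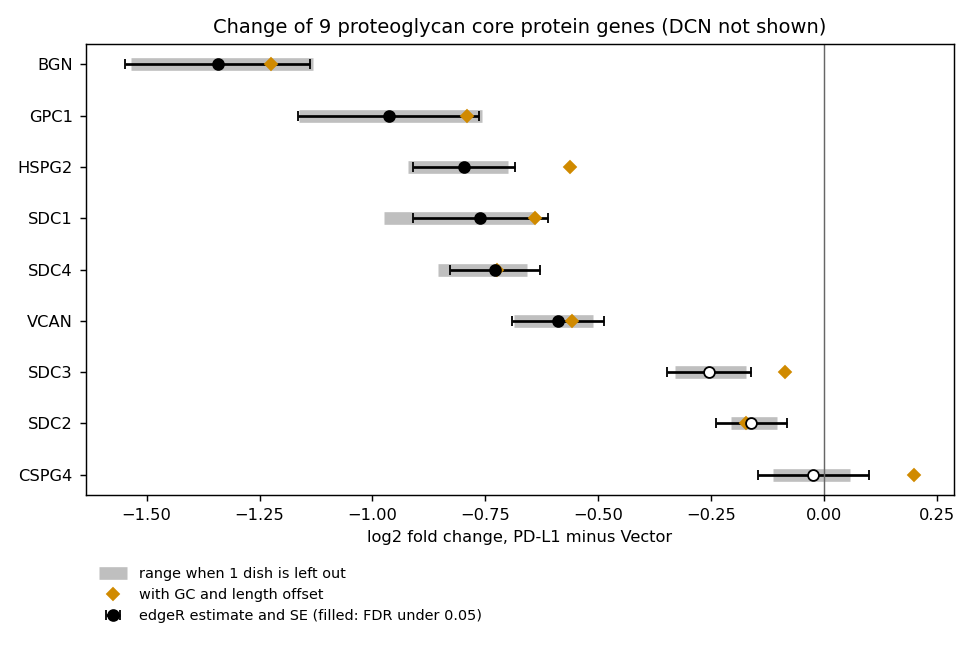
Log2 fold change (PD-L1 minus Vector) of 9 core protein genes with bars of 1 standard error, as fitted by edgeR, the range over fits that leave out 1 dish as a grey band, and the value with the GC and length offset as a diamond. SDC2, SDC3 and CSPG4 lie nearest to 0, BGN lies lowest at -1.34, and DCN is left out because its PD-L1 counts are 3 or fewer.

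CSPG4 (ENSG00000173546) encodes a transmembrane chondroitin sulfate proteoglycan of oligodendrocyte precursors and pericytes. It had 13.1, 15.0 and 11.7 CPM in PD-L1 dishes 1 to 3, against 14.9, 12.9 and 12.5 CPM in Vector dishes 1 to 3. The dishes of both groups were interleaved. The log2 fold change was -0.02 ± 0.12 (SE, adjusted p = 0.934 in edgeR), and its sign turned with upper-quartile scaling (0.01) and with the GC and length offset (0.20). With that offset and without PD-L1 dish 3, CSPG4 was called higher (log2 fold change 0.30, adjusted p = 0.044). The other oligodendrocyte precursor markers, PDGFRA, SOX10, OLIG1 and OLIG2, were scarce. They summed to 15.0 to 18.0 CPM in PD-L1 dishes and 16.8 to 22.7 CPM in Vector dishes. Of the 3 tested, PDGFRA alone was lower, beside 7.2% of all tested genes.

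The remaining members kept a negative log2 fold change in every fit in which they were tested. VCAN, SDC4 and HSPG2 were lower in all 6 fits that left out 1 dish. DCN was called lower in these fits too. With 3 or fewer counts in each PD-L1 dish, DCN could be tested only through its Vector dishes, so its calls rest on the filter. In the 6 fits 510 to 2241 of all tested genes were called lower, and the number called lower in all 6 was not counted. The Vector dishes shared a pattern across members: Vector dish 1 was the highest Vector dish for 10 of 10 members, against 35.3% of all tested genes. Vector dish 2 was the lowest Vector dish for 8 of 10 members (34.8% of tested genes). PD-L1 dish 3 was the highest PD-L1 dish for 6 of 10, not far from the 41.8% of tested genes. For VCAN, HSPG2, SDC3 and CSPG4 it was PD-L1 dish 2. DCN aside, the coefficient of variation was largest for SDC1 in the PD-L1 dishes (23.7%) and for BGN in the Vector dishes (26.0%). It was smallest for SDC2 in both groups, at 4.99% in PD-L1 dishes and 7.16% in Vector dishes.

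Per kilobase of exon (union of all exons in GENCODE 29), the order of levels in the PD-L1 dishes was SDC4, SDC1, SDC2, GPC1, BGN, SDC3, VCAN, HSPG2, CSPG4 and DCN. Mean levels per kilobase were 27.9 ± 4.01 CPM for SDC4 and 26.0 ± 6.17 CPM for SDC1 in PD-L1 dishes (SD, n = 3). In the Vector dishes the same 2 genes stood at 46.3 ± 3.64 and 44.1 ± 5.78 CPM per kilobase. SDC4 and SDC1 overlapped between dishes in both groups. Also overlapping in the PD-L1 dishes were GPC1 with SDC1 and SDC2, BGN with SDC3, and HSPG2 with CSPG4. In the Vector dishes GPC1 overlapped SDC4, SDC1 and BGN, and BGN overlapped SDC2. GPC1 stood at 19.95 ± 4.52 CPM per kilobase in PD-L1 dishes and 38.9 ± 9.32 in Vector dishes, and BGN at 10.5 ± 2.28 in PD-L1 dishes and 26.8 ± 6.95 in Vector dishes. Both were above SDC2 in the mean of the Vector dishes (22.8 ± 1.63 CPM per kilobase) and below it in the mean of the PD-L1 dishes (20.4 ± 1.02). VCAN and HSPG2, whose transcripts are long, were far lower, at 3.62 and 1.88 CPM per kilobase in PD-L1 dishes and 5.45 and 3.25 in Vector dishes. The order depends on the length used: by median transcript length GPC1 was the highest in the Vector dishes (91.4 CPM per kilobase) and SDC2 in the PD-L1 dishes (63.8).

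The make-up of the syndecan transcripts is given as each gene's share of the summed CPM per kilobase of SDC1 to SDC4. These shares restate the dish values above on another scale and are no separate evidence. The sum was 75.6, 79.7 and 97.0 CPM per kilobase in PD-L1 dishes 1 to 3, against 139, 117 and 119 in Vector dishes 1 to 3. SDC2 took 26.2%, 24.8% and 22.2% of it in PD-L1 dishes 1 to 3 and 17.7%, 18.3% and 18.9% in Vector dishes 1 to 3. The share of SDC2 was larger in every PD-L1 dish, by 6.13 percentage points in the mean.

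SDC3 took 11.8%, 13.1% and 10.2% in PD-L1 dishes 1 to 3 and 9.31%, 8.89% and 9.75% in Vector dishes 1 to 3, again larger in every PD-L1 dish. SDC4 took 33.3%, 32.7% and 33.5% in PD-L1 dishes 1 to 3 and 36.4%, 38.3% and 36.7% in Vector dishes 1 to 3, and was smaller in every PD-L1 dish. SDC1 averaged 30.7 ± 2.98% in PD-L1 dishes and 35.3 ± 1.16% in Vector dishes (SD, n = 3 each). Its PD-L1 dish 3 share of 34.1% lay just under the lowest Vector share of 34.5%. For the sum and each of the 4 shares, an exact two-sided permutation test over dishes returned p = 0.1. With 3 dishes a group no smaller p is possible, so these 5 comparisons cannot reach 0.05. By median transcript length the SDC3 groups overlapped (p = 0.2, exact permutation).

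**Figure D3:**
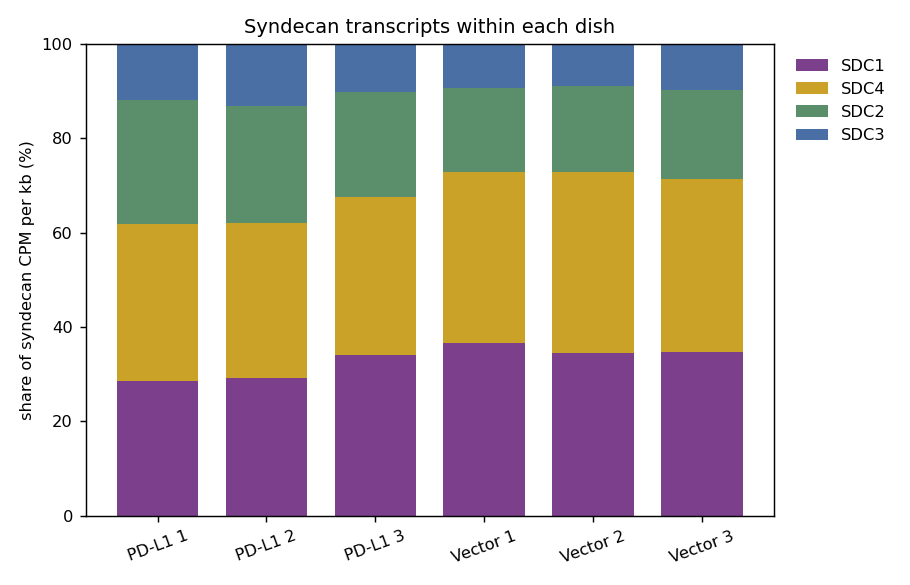
Share of each syndecan gene in the summed CPM per kilobase of SDC1 to SDC4 in each dish, in percent, with PD-L1 dishes left of Vector dishes. SDC2 takes 22.2% to 26.2% in the PD-L1 dishes, above its 17.7% to 18.9% in the Vector dishes.

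The genes whose dish values lay nearest to those of SDC4 were ID1, VASP and VIM, by the Euclidean distance of 6 centred log2 CPM values among 11386 genes at a mean of at least 5 CPM. Their distances were 0.0914 for ID1, 0.0998 for VASP and 0.102 for VIM. ID1, an inhibitor of differentiation, averaged 143.1 CPM in PD-L1 dishes and 247.2 CPM in Vector dishes. VASP, an actin-regulatory protein, averaged 63.7 CPM in PD-L1 dishes and 102.5 CPM in Vector dishes.

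Of 36 other core proteins, 24 were tested, 4 were lower, 1 was higher, and the median log2 fold change was -0.05. The shares over all tested genes were 7.2% lower and 1.55% higher. SPOCK1, the secreted proteoglycan testican-1, had 12.8, 13.9 and 13.9 CPM in PD-L1 dishes 1 to 3, against 29.4, 29.5 and 29.3 CPM in Vector dishes 1 to 3. The dishes of each group almost coincided, and SPOCK1 was 2.17-fold lower (adjusted p = 1.89e-05, edgeR). GPC6, another glypican, averaged 17.1 ± 0.33 CPM in PD-L1 dishes and 29.01 ± 5.15 CPM in Vector dishes, and was 1.69-fold lower (adjusted p = 0.0018, edgeR).

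AGRN, the basement-membrane proteoglycan agrin, averaged 174.0 ± 13.1 CPM in PD-L1 dishes and 259.4 ± 36.3 CPM in Vector dishes, and was 1.49-fold lower (adjusted p = 0.0027, edgeR). NRP1, the semaphorin and VEGF co-receptor neuropilin-1, was 1.39-fold lower (adjusted p = 0.0106, edgeR), but missed the threshold without Vector dish 1 (0.0735). GPC3 was the 1 core protein called higher, at 61.5 ± 0.98 CPM in PD-L1 dishes and 49.5 ± 4.09 CPM in Vector dishes. Its 1.24-fold increase (adjusted p = 0.0291, edgeR) was lost in 4 of 6 fits that left out 1 dish, with adjusted p up to 0.152.

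Per kilobase in the Vector dishes, the most abundant tested core proteins that did not pass were APLP2, SMC3 and TSKU. In the PD-L1 dishes the glypican GPC4 stood above TSKU, at 10.2 against 8.49 CPM per kilobase. APLP2, an amyloid precursor-like protein, had a log2 fold change of -0.04 ± 0.08 (SE). SMC3, a cohesin subunit whose secreted form was named bamacan, had 0.16 ± 0.07, and TSKU, the leucine-rich protein tsukushi, had -0.34 ± 0.11. Another 12 of the 36, among them the cartilage and cornea proteoglycans ACAN, FMOD, PRELP and KERA, had too few reads to test.

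The chains are built in steps, from a linker to polymers that are then sulfated. Of 7 genes for the tetrasaccharide linker, all tested, 2 were lower and 0 higher (median log2 fold change -0.08). The share called lower over all tested genes was 7.2%. XYLT1, which adds the first xylose to a core protein, had 10.6, 10.4 and 10.9 CPM in PD-L1 dishes 1 to 3, against 25.0, 21.7 and 23.8 CPM in Vector dishes 1 to 3. The groups were far apart and XYLT1 was 2.21-fold lower (adjusted p = 3.21e-05, edgeR). B3GALT6, a galactosyltransferase of the linker, was 1.28-fold lower (adjusted p = 0.035, edgeR), a call lost in 4 of 6 fits that left out 1 dish.

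Heparan sulfate synthesis had 4 lower and 0 higher genes of 18 tested (21 listed, median log2 fold change -0.20). The share called lower over all tested genes was 7.2%. EXT2, a subunit of the chain polymerase, averaged 133.1 ± 4.05 CPM in PD-L1 dishes and 168.8 ± 4.72 CPM in Vector dishes, and was 1.27-fold lower (adjusted p = 0.008, edgeR, but 0.0541 without PD-L1 dish 1). The heparan sulfotransferase genes HS3ST3A1 and HS3ST1 were 1.53-fold and 2.26-fold lower. HS3ST3A1 has a closely related gene, HS3ST3B1, so its counts are uncertain where the sequences match. How well reads of these genes were told apart was not tested. HS3ST1 was scarce, at 1.46 CPM in PD-L1 dishes and 3.27 CPM in Vector dishes. Its adjusted p was 0.0185 in edgeR, and it missed the threshold without PD-L1 dish 1 or Vector dish 2 (adjusted p up to 0.087).

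Chondroitin and dermatan sulfate synthesis had 7 lower and 0 higher genes of 15 tested (16 listed, median log2 fold change -0.32). Among all tested genes 7.2% were called lower. Of the 7, CHST3 alone was called in all 6 fits that left out 1 dish, and those fits called 1 to 8 genes of this list. CHST3, a chondroitin sulfotransferase, averaged 49.6 ± 5.37 CPM in PD-L1 dishes and 76.1 ± 12.1 CPM in Vector dishes, and was 1.54-fold lower (adjusted p = 0.0041, edgeR). CHPF2, a chondroitin polymerizing factor, was 1.36-fold lower, and missed the threshold without PD-L1 dish 1 or Vector dish 1. CHST12, another chondroitin sulfotransferase, was 1.29-fold lower (adjusted p = 0.0345, edgeR), but its adjusted p was 0.274 with the GC and length offset and it missed the threshold in 5 of 6 fits that left out 1 dish.

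Precursor supply had 1 lower gene of 11 tested and 0 higher (median -0.05). It was SLC35B2, which carries the sulfate donor into the Golgi, and it was 1.23-fold lower (adjusted p = 0.0362, edgeR). Chain degradation had 1 lower gene of 16 tested and 0 higher (median -0.13), the lysosomal sulfatase gene GALNS, which was 1.37-fold lower (adjusted p = 0.013, edgeR). Among syndecan cytoplasmic partners 1 of 11 was lower and 0 higher (median -0.07): EZR, the membrane-actin linker ezrin, was 1.22-fold lower (adjusted p = 0.0268, edgeR). Leaving out 1 dish ended the calls of SLC35B2 and EZR in 5 of 6 fits and that of GALNS in 3. A single lower gene in each of these lists is close to the 7.2% of all tested genes called lower.

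Proteases that cleave core proteins or process matrix had 5 lower and 0 higher genes of 16 tested (17 listed, median log2 fold change -0.36). The share called lower over all tested genes was 7.2%. MMP14, a membrane-bound metalloproteinase that can shed syndecan-1, had 74.8, 80.2 and 98.6 CPM in PD-L1 dishes 1 to 3, against 253.9, 174.6 and 210.9 CPM in Vector dishes 1 to 3. The groups did not overlap, Vector dish 1 was the highest as for the core proteins, and MMP14 was 2.52-fold lower (adjusted p = 1.31e-04, edgeR). MMP2, a gelatinase that MMP14 activates, averaged 58.6 ± 8.10 CPM in PD-L1 dishes and 137.3 ± 26.3 CPM in Vector dishes (2.34-fold lower). BMP1, the procollagen C-proteinase, which also processes probiglycan, was 1.804-fold lower, at 38.4 ± 6.53 CPM in PD-L1 dishes and 69.1 ± 9.46 CPM in Vector dishes.

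Heparin-binding ligands had 7 lower and 0 higher genes of 17 tested (19 listed, median log2 fold change -0.59). The share called lower over all tested genes was 7.2%. The fits that left out 1 dish called 3 to 10 genes of this list. PTN, the neurite growth factor pleiotrophin, averaged 35.2 ± 4.43 CPM in PD-L1 dishes and 63.0 ± 10.3 CPM in Vector dishes, and was 1.79-fold lower (adjusted p = 7.33e-04, edgeR). TGFB2 had 10.9, 10.0 and 10.4 CPM in PD-L1 dishes 1 to 3, against 17.9, 16.6 and 17.0 CPM in Vector dishes 1 to 3, with little spread in either group. TGFB1, the related ligand that decorin and biglycan bind, was 1.97-fold lower at 54.3 ± 11.8 CPM in PD-L1 dishes and 107.0 ± 19.5 CPM in Vector dishes, but missed the threshold without PD-L1 dish 2 (adjusted p = 0.0588, edgeR).

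**Figure D4:**
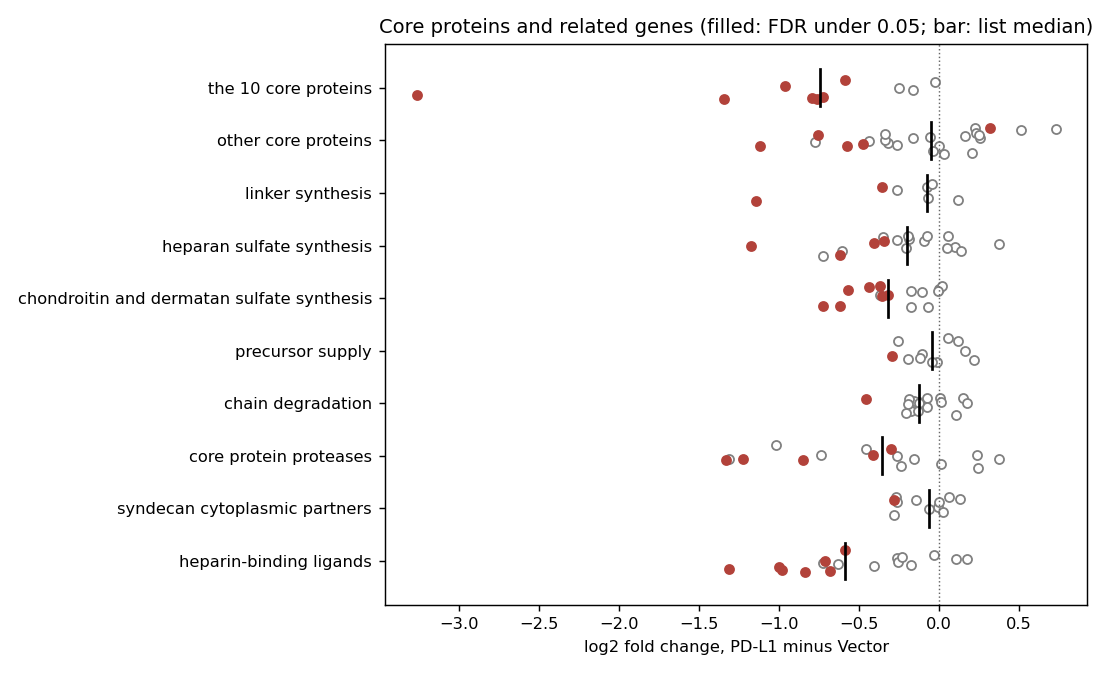
Log2 fold change (PD-L1 minus Vector) of each tested gene in the core protein list and in the 9 related lists, with called genes filled and the median of each list as a bar. The fitted value of DCN, the lowest point, rests on 3 or fewer counts in each PD-L1 dish. Of the lists shown, the core proteins, DCN included, have the lowest median at -0.75. The lists were chosen with earlier results of these data known, so their order is no evidence. GPC3 is the 1 called gene above 0 in the 9 related lists.

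In all, 33 genes of the 9 related lists were called, 32 lower and 1 higher, and 11 of them were called in all 6 fits that left out 1 dish. Those 11 were GPC6, SPOCK1, AGRN, XYLT1, HS3ST3A1, CHST3, MMP2, MMP14, BMP1, PTN and TGFB2. Among all tested genes 7.2% were called lower and 1.55% higher. How many of all called genes held in the same 6 fits was not counted. In the 8 related lists with 0 higher calls in edgeR, DESeq2 also called 0 higher. At an unadjusted p under 0.05 edgeR had 1 higher gene in precursor supply and 1 among the proteases. Higher calls in the 9 lists numbered 5, beside 35 lower, with the GC and length offset, and 6, beside 45 lower, without PD-L1 dish 3. Of 6 markers of pericytes and fibroblasts, 3 were lower in the PD-L1 dishes (PDGFRB, FAP and THY1) and 0 higher in edgeR. The other 3 did not pass, with log2 fold changes of 0.33 for ACTA2, 0.14 for RGS5 and -0.32 for LUM. The summed level of all 6 was 35.6 to 58.1 CPM in PD-L1 dishes and 70.1 to 110.7 CPM in Vector dishes, and none was at 0. Most of that sum was THY1, at 31.1 ± 10.4 CPM in PD-L1 dishes and 66.4 ± 19.0 CPM in Vector dishes. The part of these markers in the result was not tested. Leukocyte markers summed to 3.20 to 3.37 CPM in PD-L1 dishes and 3.42 to 5.17 CPM in Vector dishes, and endothelial markers to 2.93 to 4.28 CPM in PD-L1 dishes and 3.32 to 4.41 CPM in Vector dishes. Of the 2 tested in each, 0 leukocyte markers and 1 endothelial marker (KDR) were lower. The other endothelial marker, CDH5, had a log2 fold change of 0.71 ± 0.29 (SE) and did not pass (adjusted p = 0.151, edgeR).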

How the data were processed

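Poly-A RNA of 6 dishes was sequenced from libraries that keep no strand information (NEBNext Ultra), made from 3 µg of total RNA per dish. The submitters' processing notes name CASAVA 1.8, STAR 2.5.1b, HTSeq 0.6.0 and the build hg19. Which annotation, strand mode and read filters went into counting is not stated in these notes or the labels. Raw counts per Ensembl gene and dish were deposited by the authors as whole numbers, and the same counts divided by 1 factor per dish, which are a normalized signal. The counts were used throughout, and the normalized signal served for 1 alternative and for the comparison of size factors.

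Groups came from the sample titles. Symbols came from a gene name table for 51996 IDs and from GENCODE 29 for 342 more, and 5435 IDs had none. GENCODE 29 lies on another build (GRCh38), so it gave names, exon lengths, GC content and overlaps but no coordinates of the counted genes. Promoter windows came from RefSeq with their own build.

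Counts of all 6 dishes were fitted in R 4.3.3 with edgeR 4.0.16 (filterByExpr, TMM, robust glmQLFit, glmQLFTest, no covariates), with Benjamini-Hochberg FDR under 0.05 over all tested genes. Each standard error is the size of the fold change over the root of its F statistic. Intervals from counts cover counting error only. The main edgeR fit alone was tested on simulated counts. Alternatives were relative log expression and upper-quartile scaling, DESeq2 1.42.0, no filter on low counts, genes averaging 5 CPM or more, limma-trend (limma 3.58.1) on log2 of the normalized signal plus 1, an FDR of 0.01, the replicate number as a block, a spline offset for GC content and length, and leaving out each dish. The offset without PD-L1 dish 3, and the authors' size factors, were added after seeing the data. Tables and plots used Python 3.11.15, pandas 2.3.3 and matplotlib 3.10.9.

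The members and all lists were chosen with earlier results of these data known. The text names the 10 members and CD274, every other core protein that passed and the 3 most abundant per length in the Vector dishes that did not, and up to 3 passing genes of each further list. It also names the 3 genes nearest in dish pattern to the member with the smallest p. Genes with too few reads, markers and GPC4 are named outside this rule.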

Additional observations from a re-analysis of the deposited data

How the results depend on the processing

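The number of core proteins called lower stayed between 5 and 8 of 10 in every fit, with 1 also called higher under the offset without PD-L1 dish 3. Over all genes, 1384 calls in edgeR became 2218 (1337 lower, 881 higher) with the GC and length offset, 3523 with that offset and without PD-L1 dish 3, 530 at an FDR of 0.01, and 545 to 3512 when 1 dish was left out. The largest of these was without PD-L1 dish 3 and the smallest without Vector dish 1. In the 9 related lists, 33 calls (32 lower, 1 higher) became 55 (47 lower, 8 higher) with the offset and without PD-L1 dish 3, 13 at an FDR of 0.01, and 14 to 51 when 1 dish was left out. The log2 fold change of CSPG4 was positive with upper-quartile scaling (0.00846), with the offset (0.20) and with the offset without PD-L1 dish 3 (0.30), and ranged from -0.11 to 0.0581 when 1 dish was left out. GPC1 and SDC1 were not called at an FDR of 0.01. The causes were not tested.

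The difference in syndecan share (PD-L1 minus Vector, percentage points) was 8.28 for SDC2 by median transcript length. For SDC3 it was 3.50 by CPM not scaled for length and 1.61 by median transcript length. When 1 dish was left out it ranged from -6.30 to -3.56 for SDC1, 5.22 to 7.23 for SDC2 and 1.68 to 3.18 for SDC3.

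Same-numbered dishes did not deviate together (correlations of -0.21, -0.05 and -0.19). Deviations from a mean of 3 dishes depend on each other, so this check cannot decide whether the numbers pair the dishes. With the replicate number as a block 1447 genes were called (1209 lower, 238 higher), and the same number of members, 7, was called lower. No dish correlated best with its own number. DCN, at 3 or fewer counts in each PD-L1 dish, is limited by depth. It was not tested at a mean of at least 5 CPM.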
